A study of Mus musculus with 27 samples.

Results

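The genes described here are 39 genes of the cell division cycle, followed in mouse liver over a dose series of TCDD, the most studied of the dioxins, which acts by binding the aryl hydrocarbon receptor. They were chosen by name: 21 genes of the G1/S transition and of DNA replication, 16 genes of G2 and mitosis, and 2 inhibitors of cyclin-dependent kinases (CDKs). Each of the 39 symbols matched 1 of the 41388 gene identifiers in the deposited counts, and all 39 were among the 15121 genes with enough counts to be tested. RNA was sequenced from whole livers of female C57BL/6 mice, all of them ovariectomized, so that males and intact females are not represented. The mice received sesame oil (the vehicle) or TCDD in that oil by oral gavage once every 4 days over 92 days, and their labelled age is 120 days. One label also describes the dosing as daily. The 9 groups of 3 livers were vehicle and TCDD at 8 doses of 30, 10, 3, 1, 0.3, 0.1, 0.03 and 0.01 µg/kg, and the groups differ in no other labelled factor.

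As background, cyclin D with CDK4 and cyclin E with CDK2 carry a cell from G1 into S phase by releasing E2F transcription factors, which switch on replication genes. Before S phase, CDC6 and CDT1 load the MCM helicase onto replication origins, a step called licensing, and geminin (Gmnn) blocks CDT1 afterwards so that DNA is copied only a single time. Cyclin A and cyclin B with CDK1, FOXM1 and the Polo and Aurora kinases then drive G2 and mitosis. Most hepatocytes of an adult liver rest outside the cycle and can return to it after injury or loss of tissue.

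The 2 classes also differ in the short sequence motifs near their start sites, and 4 promoters are shown because they carry the motifs for which each class is known. RefSeq start sites on GRCm38.p6 gave windows of 300 bases, from 250 bases before to 50 bases after the start, for 32 of the 39 genes, with a total of 36 windows. The windows shown for Mcm5 (chr8:75109259-75109558, plus strand) and Mcm6 (chr1:128359656-128359955, minus strand) have matches to an E2F motif in capitals. Those of Ccnb2 (chr9:70421505-70421804, minus strand) and Cdc20 (chr4:118437294-118437593, minus strand) have matches to the cell cycle homology region (CHR) and to the CCAAT box in capitals. In Mcm5 and in Mcm6 a run of capitals joins overlapping matches on both strands.
Mcm5: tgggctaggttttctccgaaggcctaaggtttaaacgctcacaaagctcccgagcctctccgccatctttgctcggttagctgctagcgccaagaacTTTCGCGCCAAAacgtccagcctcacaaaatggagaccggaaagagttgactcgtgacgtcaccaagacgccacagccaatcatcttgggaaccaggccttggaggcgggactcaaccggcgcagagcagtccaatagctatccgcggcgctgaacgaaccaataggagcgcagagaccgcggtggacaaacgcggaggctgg
Mcm6: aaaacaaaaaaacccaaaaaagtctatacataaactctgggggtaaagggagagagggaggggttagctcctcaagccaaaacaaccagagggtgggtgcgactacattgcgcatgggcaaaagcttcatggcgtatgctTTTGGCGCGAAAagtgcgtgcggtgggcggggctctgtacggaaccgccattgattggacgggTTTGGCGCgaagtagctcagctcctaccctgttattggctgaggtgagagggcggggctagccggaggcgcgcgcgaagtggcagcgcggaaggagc
Ccnb2: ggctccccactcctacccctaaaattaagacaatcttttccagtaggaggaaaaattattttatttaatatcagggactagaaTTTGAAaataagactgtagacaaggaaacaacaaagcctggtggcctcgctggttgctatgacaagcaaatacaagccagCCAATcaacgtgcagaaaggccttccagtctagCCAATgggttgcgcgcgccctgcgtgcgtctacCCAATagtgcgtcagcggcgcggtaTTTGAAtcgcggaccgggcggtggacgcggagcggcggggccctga
Cdc20: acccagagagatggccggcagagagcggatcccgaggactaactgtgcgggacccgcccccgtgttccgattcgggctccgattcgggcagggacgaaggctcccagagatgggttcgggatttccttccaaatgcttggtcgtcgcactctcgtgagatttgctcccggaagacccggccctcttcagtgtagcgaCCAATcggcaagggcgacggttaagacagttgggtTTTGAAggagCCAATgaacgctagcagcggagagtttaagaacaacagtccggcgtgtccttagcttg

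Motifs were searched on both strands. The CHR (TTTGAA or TTCGAA) was in 11 of 13 windows of G2/M genes (84.6%) and in 3 of 19 windows of G1/S genes (15.8%), beside 19.2% of all 32851 windows in the table. The CCAAT box (CCAAT) was in 12 of the 13 G2/M windows (92.3%), in 12 of the 19 G1/S windows (63.2%) and in 37.4% of all windows. The 11 G2/M windows with a CHR all held a CCAAT box as well, a pair present in 7.52% of all windows. The E2F motif, searched as TTTCCCGC, TTTCGCGC, TTTGCCGC or TTTGGCGC, was in 8 of the 19 G1/S windows (42.1%), in 1 of the 13 G2/M windows (7.69%) and in 2.26% of all windows. TTTCGCGC and TTTGGCGC can overlap each other on opposite strands, as they do in Mcm5 and Mcm6. The core of the motif bound by the aryl hydrocarbon receptor, GCGTG, was in 7 of the 19 G1/S windows (36.8%), 8 of the 13 G2/M windows (61.5%) and 32.4% of all windows. A match describes the letters of a window and does not show that a factor binds there. No window was matched for Ccnd1, Ccne2, Gmnn, Mcm4, Ccna2, Foxm1 and Aurkb.

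The library totals ranged from 11050391 to 30873586 counts, apart from the second 0.3 µg/kg library with 434011, in which a single count is worth 2.87 CPM (counts-per-million) and 16 of the 39 genes had no count. CPM are relative to library sizes scaled by TMM (trimmed mean of M-values). Index sequences in the deposited names fall into a first set, used for vehicle to 0.1 and for 30 µg/kg, and a second set, used for 0.3 to 10 µg/kg, so that index set and dose cannot be told apart when 0.3, 1, 3 or 10 µg/kg is compared with vehicle. The 30 µg/kg livers carry indices of the same set as vehicle. The 27 libraries have 24 distinct indices, and those at 30 µg/kg repeat indices used for vehicle to 0.1 µg/kg. A shared set thus does not show that the 30 µg/kg libraries were sequenced together with vehicle. Hepatocyte markers dominated every group, with 8 of 8 markers detected and a summed level of 119227 to 228717 CPM in vehicle and 59475 to 97122 CPM at 30 µg/kg. In whole liver, a change in the share of dividing cells and a change in RNA per cell cannot be told apart.

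A pair of libraries stood apart in the G2/M genes. The summed level of the 16 G2/M genes was 17.7, 17.9 and 16.9 CPM in vehicle. In the first 1 µg/kg liver it was 152 CPM, against 30.8 and 44.0 CPM in the other 2 livers of that group. In the second 0.01 µg/kg liver it was 50.3 CPM, against 20.5 and 21.2 CPM in the other 2. The first 1 µg/kg liver was thus higher than every other liver of the series in this sum, above the 98.4, 46.7 and 52.9 CPM at 30 µg/kg. Calls at 1 µg/kg are therefore given with and without it.

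Across the dose series, division genes were higher at 1, 10 and 30 µg/kg, and most of the rise was in the G2/M class. At 30 µg/kg, 15 of the 16 G2/M genes were called higher and none lower, with a median log2 fold change of 2.31 against vehicle. Of the 21 G1/S and replication genes, 11 were called higher and 3 lower, with a median of 0.80. Over all genes tested the median was -0.01. A call is an adjusted p below 0.05 in edgeR's quasi-likelihood test, adjusted by the Benjamini-Hochberg method over all genes. At that threshold 18.0% of all genes were called higher and 19.4% lower at 30 µg/kg. With another scaling of the libraries (RLE factors) the calls over all genes at 30 µg/kg were 3345 higher and 2299 lower in place of 2720 and 2940, and the median of all genes moved to 0.10.

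At 10 µg/kg, 12 of the 16 G2/M genes and 8 of the 21 G1/S genes were called higher, where 11.3% of all genes were, with class medians of 1.93 and 0.75. The third 10 µg/kg liver and the third vehicle liver bear on that count: of the 20 genes called higher, 9 were called without the former and 8 without the latter. At 3 µg/kg no G2/M gene was called and the class median was 0.85, whereas 4 G1/S genes were called higher, where 5.17% of all genes were and 10.1% were called in either direction. At 1 µg/kg, 15 G2/M genes and 6 G1/S genes were called higher, where 11.1% of all genes were, with medians of 2.26 and 0.42. When the first 1 µg/kg liver was left out, 7 of these 21 genes were called, namely Birc5, Ccna2, Ccnb2, Ccne1, Ccne2, Gmnn and Mki67, and the medians of all 16 G2/M and all 21 G1/S genes were 1.28 and 0.12, where 6.37% of all genes were called higher. A fit of the 6 vehicle and 1 µg/kg libraries alone called 8. At 0.3 µg/kg Gmnn was the 1 gene called, where 0.622% of all genes were called higher and 1.18% in either direction. None of the 39 genes was called at 0.1, 0.03 or 0.01 µg/kg, where 0.145%, 0.0331% and 0.0% of all genes were called higher and 0.0463%, 0.00661% and 0.0% lower (0.0397% in either direction at 0.03 µg/kg). At an unadjusted p below 0.05, 3 genes were higher and 1 lower at 0.1 µg/kg, none in either direction at 0.03 µg/kg, and 7 higher and 1 lower at 0.01 µg/kg. All these comparisons share the 3 vehicle livers.

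**Figure D1:**
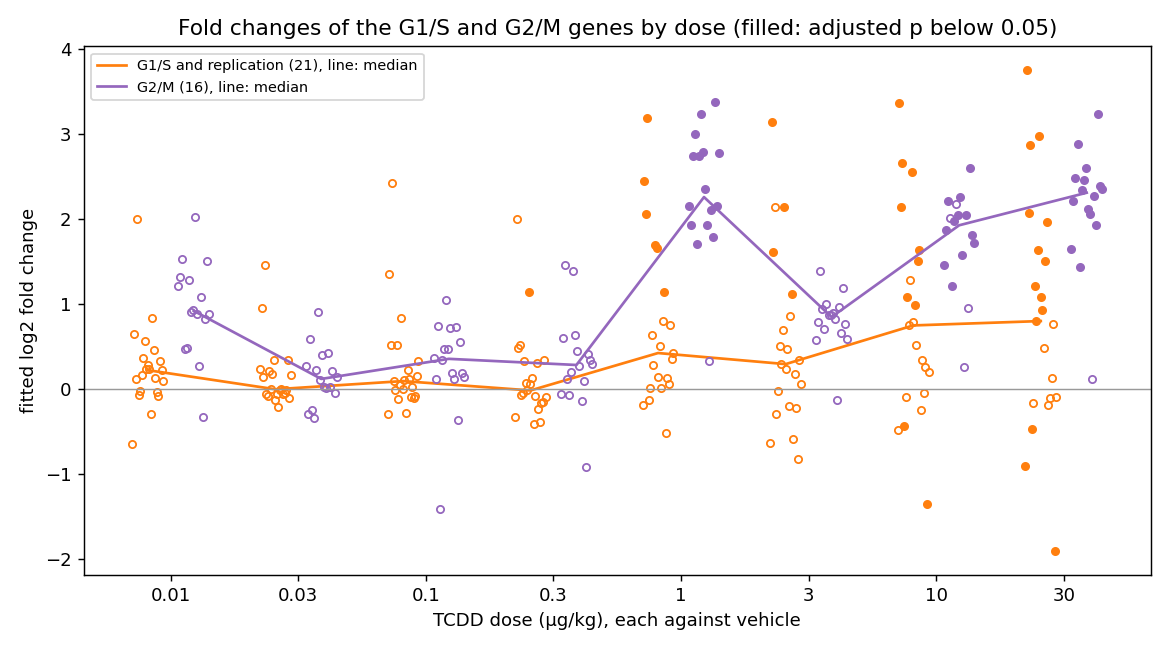
Fitted log2 fold change of each G1/S and replication gene (orange, 21 genes) and each G2/M gene (purple, 16 genes) at each dose against vehicle, with filled points for an adjusted p below 0.05 and lines through the class medians. The G2/M median is 2.26 at 1, 0.85 at 3, 1.93 at 10 and 2.31 at 30 µg/kg, and the G1/S median stays between -0.02 and 0.80.

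**Figure D2:**
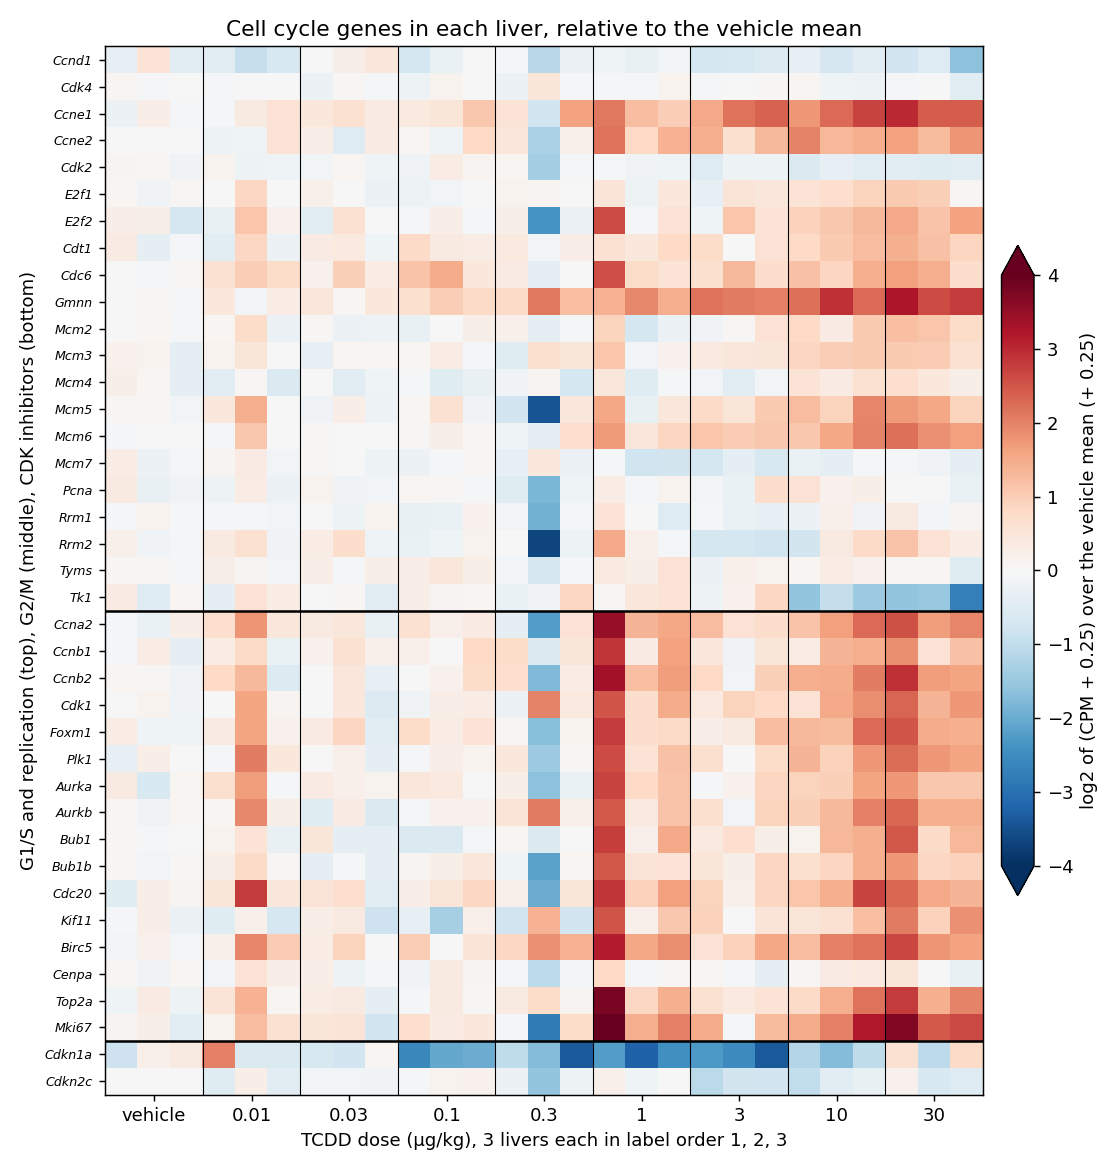
Colour shows log2 of CPM plus a pseudocount of 0.25 over the vehicle mean plus 0.25 for each of the 39 genes (rows) in each of the 27 livers (columns, 3 per dose in label order). Gmnn and Ccne1 redden from left to right, the G2/M block is deepest red in the first 1 µg/kg liver, and the second 0.3 µg/kg column is the library with 434011 counts.

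Geminin showed the steadiest gradient with dose. Gmnn (chr13:24751845-24761923 on GRCm38, minus strand) measured 4.48, 4.60 and 4.21 CPM in vehicle and 4.07 to 9.0 CPM in the 9 livers at 0.01 to 0.1 µg/kg. It measured 7.68, 20.1 and 10.5 CPM at 0.3 µg/kg, the second value resting on 7 counts, and 11.9, 17.5 and 12.6 CPM at 1 µg/kg. At 3 µg/kg it reached 20.7, 19.7 and 18.5 CPM, and it rose on to 21.4, 35.0 and 22 CPM in the 10 µg/kg group and to 43.7, 28.4 and 32.4 CPM in the 30 µg/kg group. From 0.1 µg/kg upward every liver lay above the highest vehicle liver. The fitted rise was 2.20-fold at 0.3 µg/kg (edgeR adjusted p = 0.0172), 3.17-fold at 1, 4.42-fold at 3 and 5.90-fold at 10 µg/kg. At 30 µg/kg it was 7.86-fold, a log2 fold change of 2.97 ± 0.23 (SE, edgeR adjusted p = 3.84e-10). The call at 0.3 µg/kg was lost in 5 of 14 alternative analyses, with a highest adjusted p of 0.264 when the third 0.3 µg/kg liver was left out. Those at 1, 3, 10 and 30 µg/kg held in all 15 alternatives each, among them the one that kept only the second 1 µg/kg liver. Per kilobase of exon, the mean level of Gmnn at 30 µg/kg (23.8 CPM per kb) was the highest of the 39 genes, above that of Ccnd1 (20.4 CPM per kb), whereas in vehicle Ccnd1 (38.2 CPM per kb) and Cdk4 (12.1 CPM per kb) led and Gmnn had 3.02 CPM per kb.

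Among the G1 regulators, the E cyclins rose and their partner kinase did not. Ccne1 (cyclin E1, chr7:38097984-38107534, minus strand) was near its detection limit in vehicle, at 0.112, 0.261 and 0.161 CPM, with 12 counts over the 3 libraries. It measured 1.61, 0.750 and 0.599 CPM at 1 µg/kg and 0.978, 1.68 and 1.96 CPM at 3 µg/kg. At 10 µg/kg it measured 1.17, 1.81 and 2.53 CPM and at 30 µg/kg 3.11, 2.04 and 2.02 CPM. No liver at these 4 doses overlapped vehicle. The fitted rise was 5.48-fold at 1 (3.88-fold without the first liver), 8.86-fold at 3, 10.3-fold at 10 and 13.5-fold at 30 µg/kg, the last with a log2 fold change of 3.75 ± 0.49 (SE, edgeR adjusted p = 1.51e-06). Ccne2 (cyclin E2) was called higher at the same 4 doses by 4.17-, 3.07-, 4.43- and 4.22-fold, from 0.361 to 0.373 CPM in vehicle to 1.23 to 1.86 CPM at 30 µg/kg. Annotated exons on the opposite strand cover 17.4% of those of Ccne2. The share of its counts that this affects is not known, because the strand setting of the counting is not given in the sources used here.

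Cdk2, the kinase that cyclin E activates, measured 16.4, 15.6 and 13.8 CPM in vehicle and 11.1, 10.9 and 11.2 CPM at 30 µg/kg, with no overlap between the groups. It was called lower by 1.36-fold at 10 (edgeR adjusted p = 0.0442) and 1.38-fold at 30 µg/kg (0.0204). The calls were lost in 13 and in 8 of 15 alternatives, with highest adjusted p-values of 0.179 and 0.0997. Ccnd1 (cyclin D1), which links growth signals to the cycle, varied widely in vehicle, at 142, 264 and 133 CPM, and fell to 106, 124 and 57.7 CPM at 30 µg/kg. That was a 1.87-fold fall (edgeR adjusted p = 0.00867), with no overlap between the groups, and the adjusted p was 0.124 without the second vehicle liver and 0.0785 without the third 30 µg/kg liver. Exons of the opposite strand cover 23.4% of Ccnd1. Cdk4, its partner kinase, passed no test, with 37.1 to 41.8 CPM in vehicle and 28.9 to 39.1 CPM at 30 µg/kg. Opposite-strand exons cover 19.7% of Cdk4.

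E2f1, an activating E2F, measured 2.76, 2.35 and 2.73 CPM in vehicle and 5.67, 5.26 and 2.71 CPM at 30 µg/kg, where 2 livers were above vehicle and the third was within it. It was called at 30 µg/kg alone among the doses (1.74-fold, edgeR adjusted p = 0.0265), a call lost in 4 of 15 alternatives. Without the second or the third vehicle liver, or the first or the second 30 µg/kg liver, the adjusted p was 0.0823, 0.0572, 0.124 and 0.0889. E2f2, another activating E2F, measured 1.31, 1.26 and 0.562 CPM in vehicle, 7.67, 0.965 and 1.69 CPM at 1 µg/kg and 3.44, 2.61 and 3.67 CPM at 30 µg/kg. The 30 µg/kg livers were all above vehicle, while at 1 µg/kg the second liver was within it. E2f2 was called at 1 (3.24-fold, edgeR adjusted p = 0.034) and at 30 µg/kg (3.11-fold, 0.0225). Without the first 1 µg/kg liver it was 1.26-fold higher at 1 µg/kg (edgeR adjusted p = 0.716), and that call was also lost without any 1 of the vehicle livers (0.0567 to 0.149). The call at 30 µg/kg was lost without the third vehicle, the first 30 or the third 30 µg/kg liver (0.0538 to 0.105).

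**Figure D3:**
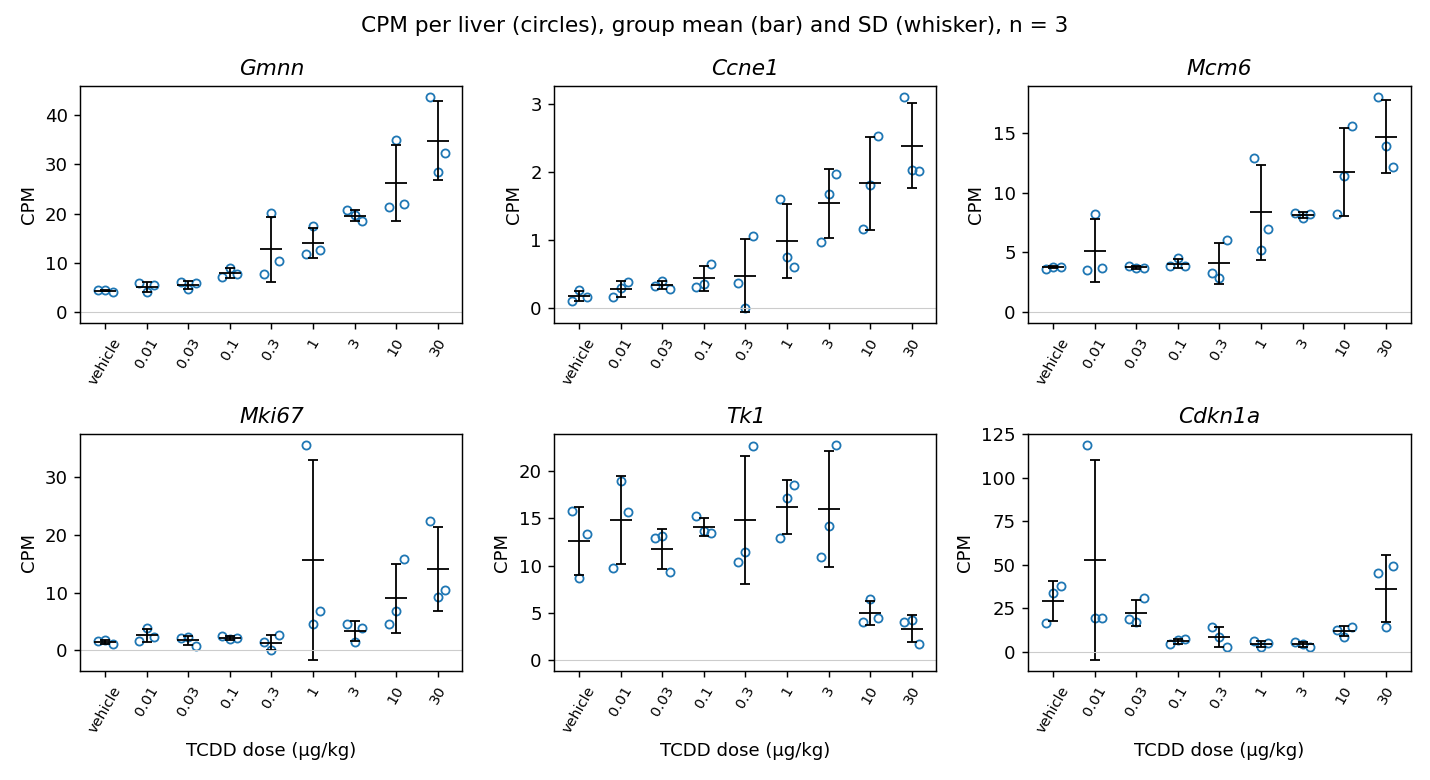
CPM of 6 genes in each liver (circles) by dose, with the group mean (bar) and SD (whisker, n = 3). Gmnn, Ccne1 and Mcm6 climb with dose, Mki67 is led by 1 liver of 35.6 CPM at 1 µg/kg, Tk1 drops at 10 and 30 µg/kg, and Cdkn1a is lowest at 1 and 3 µg/kg.

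Licensing genes rose at the top of the series, and the MCM subunits did so unevenly. Of the 9 licensing genes (Cdt1, Cdc6, Gmnn and 6 MCM subunits), 7 were called higher at 30 µg/kg, 6 at 10, 2 at 3 and 3 at 1 µg/kg (1 without the first 1 µg/kg liver, Gmnn). None was called lower at any dose in the fit of all libraries. Without the first 1 µg/kg liver Mcm7 was called 1.75-fold lower at 1 µg/kg (edgeR adjusted p = 0.00819), where 4.79% of all genes were called lower. Mcm6 (chr1:128331590-128359664, minus strand), a subunit of the hexameric helicase, measured 3.66, 3.82 and 3.77 CPM in vehicle. It measured 12.8, 5.22 and 6.96 CPM at 1, 8.32, 7.85 and 8.21 CPM at 3, 8.25, 11.4 and 15.6 CPM at 10 and 18.0, 13.9 and 12.1 CPM at 30 µg/kg. Every liver at these 4 doses was above vehicle. Of the 12 livers at lower doses the second at 0.01 µg/kg (8.19 CPM) and the third at 0.3 µg/kg (6.07 CPM) were the highest, and the others measured 2.87 to 4.5 CPM. The rise was 2.21-fold at 1, 2.17-fold at 3, 3.12-fold at 10 and 3.92-fold at 30 µg/kg, the last with a log2 fold change of 1.97 ± 0.31 (SE, edgeR adjusted p = 1.86e-05). The calls at 10 and 30 µg/kg held in all 15 alternatives, those at 1 and 3 µg/kg in 12 and 11 of 15. At 1 µg/kg the edgeR adjusted p of Mcm6 was 0.143 without the first liver, and at 3 µg/kg it was 0.0594 to 0.0696 without any 1 of the 3 vehicle livers and 0.0611 without the third 3 µg/kg liver.

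The other MCM subunits followed at 10 and 30 µg/kg or did not pass. Mcm5 was called 2.85-fold higher at both doses (edgeR adjusted p = 0.0138 and 0.00813), from 2.54, 2.56 and 2.29 CPM in vehicle to 6.11, 4.73 and 10.3 CPM at 10 and 8.61, 7.68 and 4.73 CPM at 30 µg/kg, with no overlap. Mcm3 was called at the same doses by 1.98- and 1.91-fold, and Mcm2 at 30 µg/kg by 2.12-fold. Mcm4 measured 4.09 to 6.30 CPM in vehicle and 6.33 to 8.73 CPM at 30 µg/kg and was not called at any dose, though it was called along the rank of the dose. Mcm7 measured 8.89 to 12.9 CPM in vehicle, 5.93 to 10.2 CPM at 1 µg/kg and 8.29 to 10.2 CPM at 30 µg/kg, with a log2 fold change of -0.19 ± 0.19 (SE) at 30 µg/kg. The 6 subunits act as 1 ring, and their transcripts thus differed in fold from 3.92-fold higher (Mcm6) to 1.14-fold lower (Mcm7, not called). Cdt1 was called 2.12-fold higher at 10 and 2.33-fold at 30 µg/kg, from 2.41 to 3.99 CPM in vehicle to 5.85 to 8.77 CPM at 30 µg/kg. Cdc6 had 5 counts over the 3 vehicle libraries and was called at 1, 10 and 30 µg/kg, with levels of 0.0523 to 0.0803 CPM in vehicle and 0.266 to 0.756 CPM at 30 µg/kg.

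Of the 5 genes of the replication fork and of nucleotide supply none was called higher at any dose, in a set too small to set against the 18.0% of all genes called higher at 30 µg/kg. At an unadjusted p below 0.05, 1 was higher at 1 µg/kg, where all 5 log2 fold changes were positive. Tk1 (thymidine kinase 1, chr11:117815526-117826092, minus strand), which salvages thymidine for DNA, went the other way at the top of the series. It measured 15.8, 8.73 and 13.4 CPM in vehicle, 10.9, 14.2 and 22.8 CPM at 3, 4.04, 6.45 and 4.43 CPM at 10 and 4.03, 4.30 and 1.70 CPM at 30 µg/kg. All 6 livers at 10 and 30 µg/kg were below every vehicle liver, and those at 3 µg/kg overlapped vehicle. The fall was 2.56-fold at 10 (edgeR adjusted p = 0.00464) and 3.74-fold at 30 µg/kg (log2 fold change -1.90 ± 0.34 SE, edgeR adjusted p = 0.000123), and both calls held in all 15 alternatives. Between 3 and 10 µg/kg, tested directly, Tk1 was 3.26-fold lower at 10 (edgeR adjusted p = 0.00832). That call was lost without the third 3 µg/kg, the first 10 or the third 10 µg/kg liver, with adjusted p-values up to 0.127.

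Pcna, the sliding clamp of the polymerases, measured 8.84 to 14.0 CPM in vehicle and 9.04 to 11 CPM at 30 µg/kg, with a log2 fold change of -0.10 ± 0.22 (SE). Tyms, which makes thymidylate, measured 4.41 to 4.85 and 3.30 to 4.95 CPM in the same groups. Rrm1 and Rrm2 encode the large and small subunits of ribonucleotide reductase. Rrm1 measured 10.7 to 12.6 CPM in vehicle and 10.4 to 14.7 CPM at 30 µg/kg, and Rrm2 2.61 to 3.36 and 3.67 to 6.72 CPM, a log2 fold change of 0.76 ± 0.38 (SE, edgeR adjusted p = 0.118). The 30 µg/kg livers were thus all above vehicle in Rrm2. None of these 4 genes passed the test at any dose or along the rank of the dose, and Rrm2 was called higher along the rank within the first index set.

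The mitotic cyclins and kinases moved as a block. All 8 (Ccna2, Ccnb1, Ccnb2, Cdk1, Foxm1, Plk1, Aurka and Aurkb) were called higher at 30 and at 1 µg/kg, 7 of the 8 at 10 µg/kg and none at 3 µg/kg. Without the first 1 µg/kg liver 2 of the 8 were called at 1 µg/kg, Ccna2 (3.19-fold) and Ccnb2 (3.47-fold). Their fold changes at 30 µg/kg ran from 3.14-fold (Aurka, a spindle pole kinase) to 6.07-fold (Ccnb2). Ccnb2 (cyclin B2), whose promoter with its CHR and CCAAT matches is shown above, measured 0.634, 0.628 and 0.522 CPM in vehicle. It measured 8.44, 1.71 and 2.45 CPM at 1, 1.22, 0.529 and 1.39 CPM at 3, 2.04, 2.13 and 3.25 CPM at 10 and 6.17, 2.42 and 2.29 CPM at 30 µg/kg. All livers at 1, 10 and 30 µg/kg were above vehicle, and at 3 µg/kg the second was within it. At 30 µg/kg the log2 fold change was 2.60 ± 0.57 (SE, edgeR adjusted p = 0.000872).

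Ccna2 (cyclin A2, of S phase and G2) measured 0.895, 0.732 and 1.16 CPM in vehicle, 13.1, 2.79 and 3.21 CPM at 1 and 6.59, 3.50 and 4.31 CPM at 30 µg/kg. Its rise was 6.68-fold at 1 (edgeR adjusted p = 0.000717) and 5.09-fold at 30 µg/kg (0.000939), again with no overlap. Exons of the opposite strand cover 12.5% of Ccna2. Cdk1, the kinase that starts mitosis, was called 3.81-fold higher at 1 (2.43-fold and edgeR adjusted p = 0.0899 without the first liver), 2.98-fold at 10 and 4.18-fold at 30 µg/kg. Foxm1, a transcription factor of G2/M genes, measured 0.471 to 0.746 CPM in vehicle and 1.91 to 4.41 CPM at 30 µg/kg (4.84-fold, edgeR adjusted p = 0.00401). Plk1 rose 5.24-fold and Aurkb, the kinase of the chromosomal passenger complex, 4.64-fold at 30 µg/kg. Ccnb1, with 8 counts over the 3 vehicle libraries, rose 5.52-fold at 30 µg/kg and missed the threshold at 10 µg/kg (edgeR adjusted p = 0.0539).

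Of the 8 genes of the spindle, its checkpoint and mitotic chromosomes, 7 were called higher at 30 µg/kg, 7 at 1, 5 at 10 and none at 3 µg/kg. Leaving out the first 1 µg/kg liver, 2 were called at 1 µg/kg, Birc5 (4.17-fold) and Mki67 (3.80-fold). Mki67 (chr7:135689784-135716361, minus strand) encodes Ki-67, the surface protein of mitotic chromosomes that pathologists stain in cycling cells. It measured 1.64, 1.78 and 1.04 CPM in vehicle, 35.6, 4.5 and 6.80 CPM at 1, 4.65, 1.41 and 3.93 CPM at 3, 4.58, 6.77 and 15.8 CPM at 10 and 22.4, 9.22 and 10.5 CPM at 30 µg/kg. Every liver at 1, 10 and 30 µg/kg was above vehicle, and the group at 1 µg/kg was spread more widely than any other. The rise was 10.4-fold at 1 (edgeR adjusted p = 0.00195), 6.09-fold at 10 (0.00972) and 9.47-fold at 30 µg/kg (0.00106). Top2a, which untangles sister DNA, measured 25.6, 3.11 and 4.79 CPM at 1 µg/kg against 1.42, 2.09 and 1.36 CPM in vehicle, and 12.9, 4.76 and 7.18 CPM at 30 µg/kg. Its rise was 6.85-fold at 1 and 5.13-fold at 30 µg/kg, with no overlap with vehicle at either dose, and without the first 1 µg/kg liver it was 2.44-fold higher at 1 µg/kg (edgeR adjusted p = 0.0536).

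Birc5 (survivin, of the passenger complex) rose 6.69-fold at 1 and 5.61-fold at 30 µg/kg, Cdc20, an activator of the anaphase-promoting complex, 5.14- and 4.34-fold, and Bub1b, of the spindle checkpoint, 3.26- and 2.71-fold. Kif11, the motor that separates spindle poles, rose 3.46-fold at 1 and 3.82-fold at 30 µg/kg and was not called at 10 µg/kg (edgeR adjusted p = 0.224). Bub1, a checkpoint kinase with 9 counts over the vehicle libraries, rose 8.03-fold at 1 and 7.41-fold at 30 µg/kg and was not called at 10 µg/kg (edgeR adjusted p = 0.103). Without the first 1 µg/kg liver the fold changes at 1 µg/kg were 3.04 for Cdc20, 1.56 for Bub1b, 1.78 for Kif11 and 3.59 for Bub1, none of them called (edgeR adjusted p = 0.133, 0.277, 0.329 and 0.186). Cenpa, the centromeric histone H3 variant, was the exception among the 16 G2/M genes. It measured 6.53, 5.54 and 6.50 CPM in vehicle and 8.82, 6.30 and 5.0 CPM at 30 µg/kg, overlapping groups with a log2 fold change of 0.12 ± 0.24 (SE). Its promoter window holds both a CHR and a CCAAT box, as do those of 10 other G2/M genes, whereas that of Birc5 holds neither.

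The 2 CDK inhibitors followed other courses. Cdkn1a (p21, chr17:29090976-29100727, plus strand), which blocks cyclin-CDK complexes and is a target of p53, measured 16.5, 33.8 and 37.6 CPM in vehicle. One liver at 0.01 µg/kg, the first, had 119 CPM against 19.5 and 19.6 CPM in the other 2. At 0.1 µg/kg the levels were 4.70, 6.84 and 7.22 CPM, and at 1 µg/kg they were 6.07, 2.86 and 5.17 CPM. The 3 µg/kg group had 5.79, 4.76 and 2.62 CPM, and the 10 µg/kg group 12.8, 8.67 and 14.4 CPM. At 30 µg/kg they were 45.1, 14.2 and 49.5 CPM. From 0.1 to 10 µg/kg every liver was below the lowest vehicle liver, and at 30 µg/kg the groups overlapped. The fall was 6.32-fold at 1 (edgeR adjusted p = 0.0114) and 6.88-fold at 3 µg/kg (0.0166), where 8.21% and 4.89% of all genes were called lower. It was 4.68-fold at 0.1 µg/kg, which did not pass (edgeR adjusted p = 0.458), and at 30 µg/kg Cdkn1a was 1.24-fold higher (0.741). The call at 1 µg/kg held without the first 1 µg/kg liver and was lost with the second liver alone, at an adjusted p of 0.176. The call at 3 µg/kg was lost without the third vehicle, the second 3 or the third 3 µg/kg liver, with edgeR adjusted p-values of 0.0606, 0.058 and 0.0979. Between 10 and 30 µg/kg, tested directly, Cdkn1a was 3.02-fold higher at 30, with an adjusted p of 0.192 (edgeR), and none of the 39 genes was called in that comparison, where 1.38% of all genes were called higher, 1.83% lower and 3.2% in either direction. Cdkn2c (p18), an inhibitor of CDK4 and CDK6, measured 9.10, 8.99 and 8.91 CPM in vehicle and 4.16, 5.29 and 5.24 CPM at 3 µg/kg, a 1.83-fold fall (edgeR adjusted p = 0.0139) with no overlap. It was not called at another dose, and without the first 3 µg/kg liver the adjusted p was 0.0826.

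Neighbouring doses were also tested against each other, since a call at 1 and none at 3 µg/kg does not show a difference between them. From 1 to 3 µg/kg all 16 G2/M genes had a negative log2 fold change, with a median of -1.43, and none of the 39 genes passed in edgeR, where 0.311% of all genes were called lower. At an unadjusted p below 0.05, 13 of the 16 were lower at 3 µg/kg, and DESeq2 called 5 of the 39 genes lower (Ccna2, Ccnb2, Cdkn2c, Rrm2 and Top2a). Without the second 1 µg/kg liver, which was low among the 3, edgeR called 9, and without the third it called 1. Without the first 1 µg/kg liver it called none, the G2/M median was -0.64 in place of -1.43, 14 of the 16 log2 fold changes were negative, and none of the 16 was lower at an unadjusted p below 0.05. From 3 to 10 µg/kg all 16 G2/M genes had a positive log2 fold change, with a median of 1.06, and Tk1 was the 1 gene called, where 0.384% of all genes were called lower and 0.675% higher. At an unadjusted p below 0.05, 6 of the 39 genes were higher at 10 than at 3 µg/kg. The size of the dip of the G2/M class from 1 to 3 µg/kg thus rests on the first 1 µg/kg liver. By liver, the G2/M median relative to the vehicle mean was 2.79, 0.69 and 1.46 at 1 µg/kg and 0.59, 0.19 and 0.83 at 3 µg/kg, on the log2 scale, so that the second 1 µg/kg liver was within the range at 3 µg/kg.

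Along the rank of the dose, from 0 for vehicle to 8 for 30 µg/kg, 26 of the 39 genes were called higher and 4 lower, where 23.3% of all genes were called in each direction and 46.6% in all. Gmnn had the lowest p (log2 slope 0.39 ± 0.02 per rank, SE, edgeR adjusted p = 3.65e-15), followed by Ccne1 (0.48 ± 0.04, 4.17e-11) and Mcm6 (0.24 ± 0.03, 1.66e-07). The genes called lower were Ccnd1, Cdk2, Mcm7 and Tk1. The call was lost in 21 of 40 alternatives for Tk1 (edgeR adjusted p = 0.532 without the 30 µg/kg group), in 5 of 40 for Ccnd1 and in 1 of 40 for Cdk2. For Mcm7 it was lost in 8 of 40 and the slope changed sign in 1. Without the first 1 µg/kg and the second 0.01 µg/kg liver 27 genes were called higher. Within the first index set, which holds vehicle, the 3 lowest doses and 30 µg/kg, 26 were called higher and 2 lower. Within the second index set, which spans 0.3 to 10 µg/kg, 2 were called higher (Gmnn and Mcm6) and none lower, and the slopes of Top2a, Bub1 and Ccnb1 were slightly negative there.

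Markers of blood and immune cells were high in some of the same livers as the G2/M genes. The summed level of 10 neutrophil and neutrophil precursor markers was 1.52 to 2.87 CPM in vehicle. It was 1180, 5.32 and 194 CPM at 1 µg/kg, 11.2, 12.7 and 5.35 CPM at 3 and 13.8, 24 and 47.5 CPM at 10 µg/kg, and the 30 µg/kg livers had 53.4, 50.2 and 126 CPM. The first 1 µg/kg liver was thus the highest of the series in this list as well as in the G2/M sum, and within its group the third liver exceeded the second in both. At 1 µg/kg 10 of the 10 markers were called higher (9 without the first 1 µg/kg liver), at 30 µg/kg 8 of 10, and each of them had counts in vehicle. Over all genes, 11.1% were called higher and 8.21% lower at 1 µg/kg (6.37% and 4.79% without the first liver). At 30 µg/kg these shares were 18.0% and 19.4%. The summed level of 11 macrophage markers was 181 to 236 CPM in vehicle, 865, 246 and 559 CPM at 1 and 692, 354 and 471 CPM at 30 µg/kg, where 9 (5 without the first 1 µg/kg liver) and 5 of the 11 were called higher and, at 30 µg/kg, 1 lower. Spp1, which bile duct cells also express, is part of that list and of the cholangiocyte list below, so that its counts enter both sums. In the second 0.01 µg/kg liver the neutrophil list summed to 9.91 CPM. Of 8 B and plasma cell markers, 3 were called higher and 1 lower at 1 µg/kg (2 and 1 without the first liver), and 5 and 1 at 30 µg/kg. The marker called lower was Sdc1, at 297 ± 18.3 CPM in vehicle (SD, n = 3), which makes up most of the summed level of that list. A single marker called lower, here and in the macrophage list, is too few to set against the shares of all genes. Without Sdc1 the other 7 markers summed to 9.99 to 17.6 CPM in vehicle, 174, 17.2 and 141 CPM at 1 µg/kg and 41.5 to 48.8 CPM in the 30 µg/kg livers.

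Other cell types did not all move with the G2/M genes. The 9 erythroid markers matched summed to 37.0 to 86.3 CPM in vehicle, 45.3 to 78.6 CPM at 1 and 31.1 to 70.9 CPM at 30 µg/kg, with Rhag at 0 in vehicle. The 8 cholangiocyte markers summed to 58 to 85 CPM in vehicle, 62.7 to 99.5 CPM at 1 and 130 to 354 CPM at 30 µg/kg. The 8 stellate cell markers summed to 156 to 204 CPM, 237 to 357 CPM and 360 to 698 CPM in the same groups. For the 10 T and NK cell markers the sums were 4.82 to 8.66, 8.79 to 19.1 and 7.23 to 9.03 CPM, and for the 8 endothelial markers 199 to 262, 166 to 223 and 176 to 288 CPM. In the second 1 µg/kg liver the neutrophil list was at 5.32 CPM and the macrophage list at 246 CPM. Both sums lay above those of the highest vehicle liver, at 2.87 and 236 CPM. In that liver 15 of the 16 G2/M genes were above the vehicle mean, by a median of 0.69 on the log2 scale. Gmnn was at 17.5 CPM there. The part of any of the cell types above in the levels of the division genes was not tested.

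**Figure D4:**
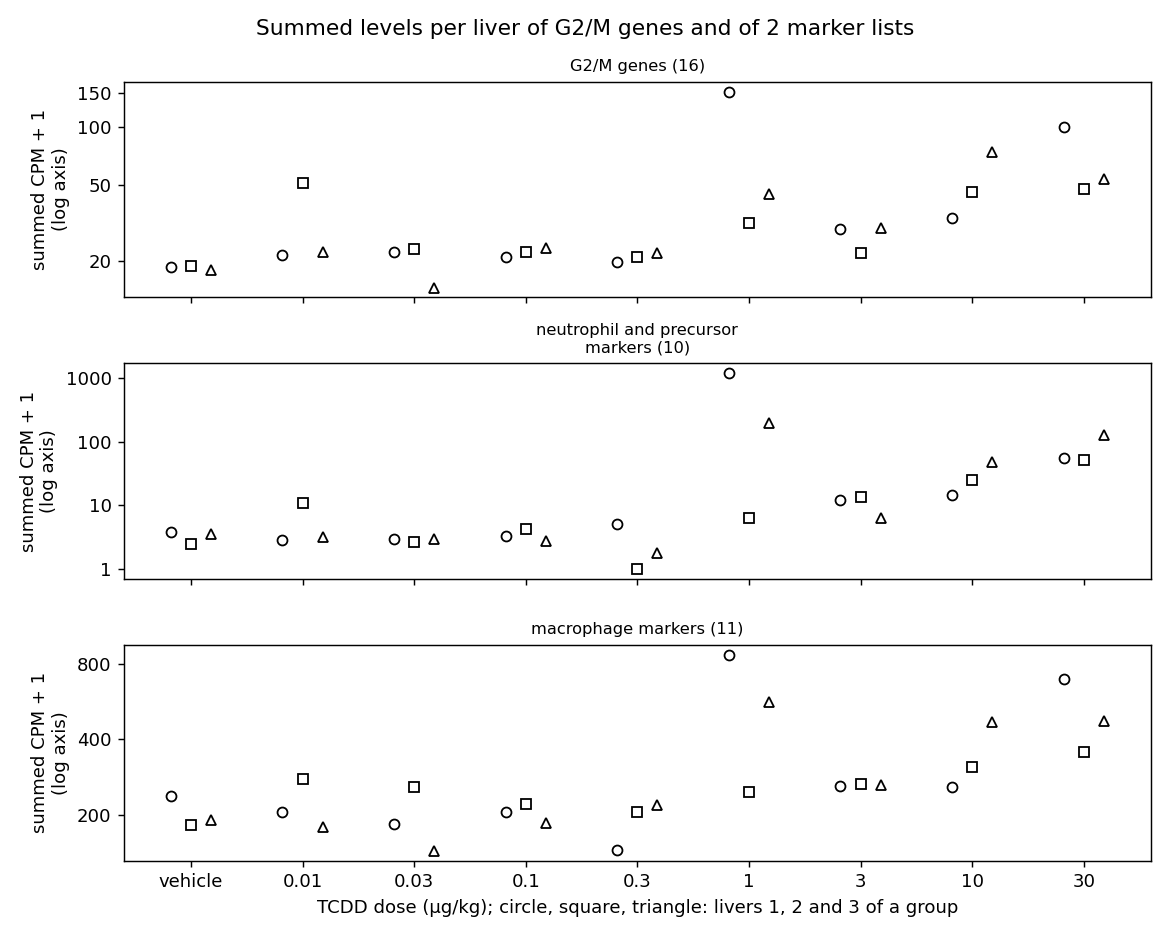
Summed CPM plus 1 (log axes) of the 16 G2/M genes, of 10 neutrophil and precursor markers and of 11 macrophage markers in each liver by dose, with circle, square and triangle for livers 1, 2 and 3 of a group. The first 1 µg/kg liver is highest in all 3 panels (152, 1180 and 865 CPM before adding 1), and the second 0.01 µg/kg liver stands above its group in the G2/M panel at 50.3 CPM.

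Further genes of the same pathways, from lists chosen with earlier results of these data known, are described by counts. Of 44 other mitotic genes tested, 37 were called higher and 2 lower at 30 µg/kg, 26 and none at 10, none in either direction at 3, and 37 and none at 1 µg/kg, with medians of 2.01, 1.67, 0.59 and 2.05. Of all genes, 18.0% were called higher and 19.4% lower at 30 µg/kg, 11.3% and 11.2% at 10, 5.17% and 4.89% at 3, and 11.1% and 8.21% at 1 µg/kg. In a fit without the first 1 µg/kg liver 11 were called higher at that dose, with a median of 1.22, where 6.37% of all genes were called higher. Cenpf, a kinetochore protein, measured 0.261 ± 0.126 CPM in vehicle and 3.16 ± 1.96 CPM at 30 µg/kg (SD, n = 3; 11.7-fold, edgeR adjusted p = 0.000109). Pbk, a mitotic kinase, rose from 0.147 ± 0.0943 to 1.66 ± 0.940 CPM. At 1 µg/kg Hmmr, a spindle protein, measured 2.48 ± 1.90 CPM, against 0.192 ± 0.114 CPM in vehicle (12.1-fold, and 6.93-fold without the first liver). The 2 genes called lower at 30 µg/kg were Pttg1 (securin) and Ccnf (cyclin F), named here after their values were seen.

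Of 34 other replication genes tested, 12 were called higher and 3 lower at 30 µg/kg, 9 and 1 at 10, 2 and none at 3, and 5 and none at 1 µg/kg (3 and none without the first liver), with medians of 0.45, 0.45, 0.22 and 0.31. Of all genes, 18.0% were called higher at 30, 11.3% at 10, 5.17% at 3 and 11.1% at 1 µg/kg (6.37% without the first liver). The counts called higher at 3 and 1 µg/kg were thus near the shares of all genes. Dbf4, the activator of the CDC7 kinase that fires licensed origins, rose from 1.22 ± 0.213 CPM in vehicle to 4.52 ± 1.70 CPM at 1 and 9.24 ± 4.14 CPM at 30 µg/kg (SD, n = 3; 7.48-fold, edgeR adjusted p = 2.13e-07). Tipin, of the fork protection complex, rose from 5.92 ± 0.748 to 13.6 ± 1.06 CPM at 30 µg/kg, and Uhrf1, which recruits the maintenance DNA methyltransferase, was called 5.43-fold higher at 1 µg/kg (2.51-fold and edgeR adjusted p = 0.111 without the first liver).

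Among 23 regulators of E2F and of the G1 checkpoint, 9 were called higher and 4 lower at 30 µg/kg, with a median of 0.43, beside 18.0% and 19.4% of all genes, so that the share called lower was near that of all genes. Mybl1 (A-Myb), a transcription factor, rose from 0.562 ± 0.069 CPM in vehicle to 21.4 ± 13 CPM at 30 µg/kg (SD, n = 3; 37.5-fold, edgeR adjusted p = 4.45e-08). E2f8, a repressive E2F, fell from 12 ± 1.78 to 3.13 ± 0.734 CPM at 1 (edgeR adjusted p = 0.00468) and to 1.24 ± 0.427 CPM at 30 µg/kg (2.17e-05). Tfdp1, the partner of activating E2Fs, was 1.97-fold higher at 30 µg/kg, and Cdkn3, a phosphatase of CDKs, 15.0-fold higher at 1 µg/kg (9.30-fold without the first liver). Of 22 other CDK inhibitors and p53 targets tested, 8 were called higher and 4 lower at 30 µg/kg, the latter again near the 19.4% of all genes. Cdkn1b (p27) rose from 36.8 ± 2.14 CPM in vehicle to 54 ± 5.71 CPM at 1 and 69.9 ± 10.6 CPM at 30 µg/kg (edgeR adjusted p = 0.00765 and 1.59e-05), with 0.0522 at 1 µg/kg without the first liver. The p53 targets Eda2r and Phlda3 were 3.13- and 3.69-fold higher at 30 µg/kg, a dose at which Cdkn1a, also a p53 target, was not called.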

How the data were processed

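The deposited values are counts of reads per gene, 1 table per library, made by the authors with HTSeq 0.6.1 after trimming with cutadapt 1.4.1 and alignment to GRCm38 with TopHat 1.4.1, with FastQC 0.11.2 and SAMtools 0.1.19 also named, per the submitters' processing notes. The annotation release and the strand setting of the counting are not stated in the labels or notes used here. The 5 summary lines of each table were left out of library sizes. Reads assigned to no gene were 5.62% to 11.9% and ambiguous reads 1.79% to 3.49% of a library. Identifiers were matched to symbols and GRCm38 positions by the GENCODE vM21 annotation (40254 with a symbol), and promoter windows came from RefSeq.

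Counts were fitted with edgeR 4.0.16 (R 4.3.3) by quasi-likelihood, robustly, in 1 model of all 27 libraries and 9 groups, so that all groups share an estimate of the spread. The filter on low counts was filterByExpr with a minimum of 10, and TMM scaling and Benjamini-Hochberg adjustment over 15121 genes were used. A second model fitted the rank of the dose from 0 to 8. Values in the heatmap carry a pseudocount of 0.25. SE is the absolute log2 fold change over the square root of F. DESeq2 1.42.0 was an alternative. The edgeR fit was also tested on simulated counts with changes placed at 30 µg/kg. It called 8.96% of the 1.5-fold, 46.4% of the 2-fold and 89.1% of the 4-fold changes, and 5% of its calls were false. The changes were placed in 67, 69 and 64 genes, drawn from all genes tested, whereas 5660 genes were called at 30 µg/kg in the data. These shares therefore need not hold for the data or for genes with few counts. A gene that was not called may have changed by 2-fold or by more, as Cdkn1a did at 0.1 µg/kg.

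The 39 members and all gene and marker lists were chosen with earlier results of these data known. All 39 members are reported; from each context list the genes named are up to 3 called at 30 µg/kg and up to 2 at 1 µg/kg with the lowest p, of which some are not reported here. Whether the 3 livers of a group were separate litters or cages is not labelled. The p-values set a difference against the spread between livers within groups, estimated over all 9 groups together. Replicate numbers recur in every group, and same-numbered libraries did not deviate together (median r 0.018 over 108 pairs, from -0.335 to 0.337).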

Additional observations from a re-analysis of the deposited data

How the results depend on the processing

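The numbers of the 39 genes called in each comparison were recomputed under alternative settings. This gave 390 recomputed counts, of which 338 stayed within 1.5 times the reported count. The 338 include counts that were 0 as reported and stayed 0, as at the 3 lowest doses. With the 6 libraries of a comparison fitted alone, the genes called higher went from 1 to 0 at 0.3 µg/kg and from 21 to 8 at 1 µg/kg. When the 1 µg/kg group was reduced to its second liver, whose spread was taken from the other groups, 1 gene was called higher and 0 lower at 1 µg/kg. At 10 µg/kg the genes called lower went from 2 to 1 with RLE factors, upper-quartile factors, no filter on low counts, a filter of at least 1 CPM in 3 libraries, the replicate block, DESeq2, and a fit without the 1 µg/kg group. That fit and the dose-rank fits without the 30 µg/kg group or without the 2 libraries that stood apart were chosen after seeing the data, as were the list counts without the first 1 µg/kg liver and the B cell sum without Sdc1. DESeq2 called 5 genes lower at 3 than at 1 µg/kg. Along the dose rank, 2 genes were called higher and 0 lower within the second index set, and 2 were called lower with RLE factors, with upper-quartile factors and within the first set. Log2 values that changed sign were E2f2 at 1 µg/kg with the second library alone (-0.10) and, within the second index set, the slopes of Top2a (-0.043), Bub1 (-0.0068), Ccnb1 (-0.14) and Mcm7 (0.023).

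Leaving out each library in turn, the genes called higher ranged from 0 to 2 at 0.3 µg/kg, 7 to 21 at 1, 2 to 4 at 3, 8 to 21 at 10 and 19 to 25 at 30 µg/kg, the lowest at 30 µg/kg without its first liver. Those called lower ranged from 1 to 2 at 1, 1 to 2 at 3, 1 to 1 at 10 and 1 to 3 at 30 µg/kg, 0 to 9 at 3 against 1 µg/kg, 0 to 1 at 10 against 3 µg/kg, and 1 to 5 along the dose rank, where 25 to 27 were called higher. The replicate numbers share no labelled source. In deviations from the group means, 10 of 27 libraries correlated best with a library of their own number, where 3 numbers were possible. The replicate block moved no count by 1.5 times other than the 1 named. Single called results were also recomputed under the alternatives. Of these 2393 recomputed results, 2166 kept direction and call, 222 kept direction and lost the call, and 5 reversed. The cause of these changes was not tested. Precision is limited by 3 livers a group, by the library of 434011 counts at 0.3 µg/kg, and by genes such as Cdc6 with 5 counts over the vehicle libraries. At 10 µg/kg the calls over all genes were 1713 higher and 1689 lower, and 2019 and 1259 with RLE factors. No called gene of the 39 changed sign with another scaling.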
